A study of Mus musculus with 6 samples.

Results

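The 10 genes described here encode the transcription factor NRF2, its inhibitor KEAP1 and a set of enzymes of glutathione, thioredoxin and quinone metabolism that NRF2 is known to control. They were taken by name (Nfe2l2, Keap1, Gclc, Gclm, Srxn1, Txnrd1, Nqo1, Gsta3, Gsr and Prdx1) from the probe sets whose annotation names exactly 1 gene. Where a gene had several such probe sets, the brightest over the 6 arrays was kept. This gave 9 of the 10 genes among 22180 genes in all. Prdx1, a peroxiredoxin that reduces hydrogen peroxide, has 3 probe sets that also name other genes and 0 that name it alone, so it is not analysed here. RNA was measured on 6 arrays of cultured macrophages grown from the bone marrow of C57Bl/6 mice, 2 arrays for each of 3 groups. All cells were first grown for 5 days with 20 ng/ml M-CSF, the growth factor that turns marrow precursors into macrophages. The M-CSF group then spent 6 days in 50 ng/ml M-CSF. The FSL-1 group spent 6 days with 20 ng/ml FSL-1, a synthetic lipopeptide sensed by TLR2 with TLR6, and the series calls these cells multinucleated giant cells. The FSL-1 + nutlin-3a group received the same FSL-1 with 10 µM nutlin-3a, which keeps Mdm2 from binding p53. Whether M-CSF was present beside FSL-1 is not stated in the labels. RNA was taken from sorted cells, whose gate is not stated either.

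NRF2 is made continuously and, in unstressed cells, KEAP1 holds it and hands it to a ubiquitin ligase for degradation. Electrophiles and oxidants modify cysteines of KEAP1, NRF2 then escapes, enters the nucleus, pairs with a small Maf protein and binds antioxidant response elements near its target genes. Much of this control acts on the NRF2 protein, which arrays of RNA do not measure. Macrophages that sense microbial products make reactive oxygen species and itaconate, and the targets of NRF2 supply glutathione, recycle it with NADPH and repair oxidised thiols.

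Because the enzymes share this regulator, the promoter windows of the 10 genes in the RefSeq table (GRCm38.p6), from 250 bases before to 50 bases after each start, were searched on both strands for the core letters of the antioxidant response element, TGACNNNGC. The table held 10 windows for 8 of the genes, 3 of them for Txnrd1. Gclc and Gsr had none in the table. The letters occurred in 6 of the 10 windows, against 12.4% of all 32851 windows. Counted by gene, they occurred in 6 of the 8 genes. A gene with several windows, such as Txnrd1, has more chances of a match, and the share by gene over all genes is not given here. Of the other NRF2 and glutathione genes listed further below, 13 of the 75 with a window held them (17.3%). The genes with a match among the 8 were Gclm, Gsta3, Nfe2l2, Prdx1, Srxn1 and Txnrd1. The windows of Keap1 and Nqo1 did not hold these letters, which says nothing of sites farther away. The first 5 genes in alphabetical order are printed with the match in capitals, 5′ to 3′ on the strand of the gene.

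Gclm: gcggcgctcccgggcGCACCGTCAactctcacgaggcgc

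Gsta3: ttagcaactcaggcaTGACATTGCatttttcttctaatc

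Nfe2l2: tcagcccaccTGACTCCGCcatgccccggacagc

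Prdx1: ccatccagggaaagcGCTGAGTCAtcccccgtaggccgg

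Srxn1: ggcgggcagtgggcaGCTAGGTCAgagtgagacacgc

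The windows lie at chr3:122245307-122245606 (plus strand) for Gclm, chr1:21240335-21240634 (plus) for Gsta3, chr2:75704614-75704913 (minus) for Nfe2l2, chr4:116685349-116685648 (plus) for Prdx1 and chr2:152105274-152105573 (plus) for Srxn1. The first base of the match lies at -134 from the start site in Gclm, -121 in Gsta3, -240 in Nfe2l2, -133 in Prdx1 and 29 in Srxn1. The matches in Gclm, Prdx1 and Srxn1 run on the opposite strand. The match in Prdx1 also holds the reverse complement of TGACTCA, the letters bound by AP-1 factors. Those letters were found in 2 member windows, in Prdx1 and Srxn1, and in 5.2% of all windows. A match of letters is a description of sequence, and binding was not measured.

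The arrays hold 34390 probe sets. Arrays of 1 group correlated at 0.993 to 0.995 over the genes and arrays of different groups at 0.979 to 0.986. At an adjusted p under 0.05 (limma), the threshold used throughout, 3.91% of all genes rose and 2.95% fell with FSL-1, and 2.38% rose and 4.12% fell when nutlin-3a was added. The nutlin-3a label was checked on 5 genes of the p53 response, and all 5 rose with nutlin-3a over FSL-1: Phlda3 by 1.28 (log2), Zmat3 by 1.25, Mdm2 by 0.77, Cdkn1a by 0.61 and Ccng1 by 0.59. Phlda3 passed whichever of the 6 arrays was omitted, and Zmat3 failed on omission of FSL-1 replicate 1. Mdm2, Cdkn1a and Ccng1 failed when any of the 4 compared arrays was omitted, and Cdkn1a also when either M-CSF array was. Mdm2 had already risen by 0.88 with FSL-1 alone (adjusted p = 0.00566), a call that failed on omission of either FSL-1 array.

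All 10 macrophage markers (among them Cd68, Lyz2 and Adgre1) lay above the median level of all genes, and their mean was between 11.0 and 11.2 (log2) on every array. With FSL-1, 2 of them rose (Adgre1 and Itgam) and 1 fell (Csf1r). Of all genes, 3.91% rose and 2.95% fell, and these shares also stand beside the FSL-1 counts of the other marker lists below. Adgre1 failed on omission of any of the 4 compared arrays, and Itgam and Csf1r on omission of M-CSF replicate 1 or either FSL-1 array. With nutlin-3a, Fcgr1 and Cd14 fell, and both passed whichever array was omitted. Of 12 neutrophil markers, 3 rose with FSL-1 (Mmp8, S100a8 and Cxcr2) and 0 fell (limma, 1 lower at an unadjusted p under 0.05), and Cxcr2 failed in 5 of the 6 fits without 1 array. Of the 12, 2 lay above the median level of all genes. The mean of this list was 4.57 and 4.64 on the M-CSF arrays, 5.05 to 5.07 with FSL-1 and 4.94 to 5.01 with FSL-1 + nutlin-3a. With nutlin-3a, Mmp8 fell by 0.62 (adjusted p = 0.0339), which failed on omission of any compared array. Of 9 fibroblast and stromal markers, Acta2 and Vcam1 rose with FSL-1, both failing on omission of any compared array, and the list had means of 5.22 to 5.26, 5.52 to 5.72 and 5.24 to 5.25. With nutlin-3a, Acta2 fell by 1.33 (adjusted p = 0.0129) and Col1a2 by 0.80 (adjusted p = 0.0292). Acta2 failed without replicate 2 of either compared group, and Col1a2 without FSL-1 replicate 2 or either nutlin-3a array. Of 7 dendritic cell markers, Ccr7 rose by 0.65 with FSL-1 (adjusted p = 0.0208) and Itgax by 0.88 with nutlin-3a (adjusted p = 0.0123), with list means of 5.50 to 5.53, 5.68 to 5.72 and 5.61 to 5.72. Ccr7 failed on omission of any compared array, and Itgax on omission of either FSL-1 array or FSL-1 + nutlin-3a replicate 1. In M-CSF, the means of S100a8 (4.19), Cxcr2 (4.77), Ccr7 (5.25) and Vcam1 (5.24) lay below the median level of all genes (5.51). Whether they were above background there is not known. The sort could have removed cells of other types. The levels of the cell type markers differ between the groups in which the NRF2 genes differ, and their part in the results was not tested. In RNA from many cells together, a change in the share of a cell type and a change in RNA per cell cannot be told apart.

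Most NRF2 target enzymes were higher in the FSL-1 cultures than in M-CSF macrophages, and neither Nfe2l2 nor Keap1 passed the test. Of the 9 measured genes, 6 rose with FSL-1: Gsta3 6.56-fold, Nqo1 3.57-fold, Gclm 2.67-fold, Srxn1 2.37-fold, Txnrd1 1.77-fold and Gsr 1.44-fold. The fold of Gsta3 may be understated, since it is not known whether Gsta3 was above background in M-CSF. None of the 9 fell (0 in limma, and 0 at an unadjusted p under 0.05). Of all genes, 3.91% rose and 2.95% fell in this comparison. The 2 groups did not overlap for 8 of the 9 genes, against 50.2% of all genes, and the median log2 change of the 9 was 0.83, against -0.0081 over all genes. The call of Gsr failed whichever of the 6 arrays was omitted. When nutlin-3a was added, Gclc was 1.69-fold and Gsr 1.42-fold higher than with FSL-1 alone, Nqo1 was 1.71-fold lower, and the other 6 did not pass. None of these 3 calls held under omission of every single array: Gclc and Nqo1 each failed without 3 of the 6 arrays and Gsr without any 1.

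**Figure D1:**
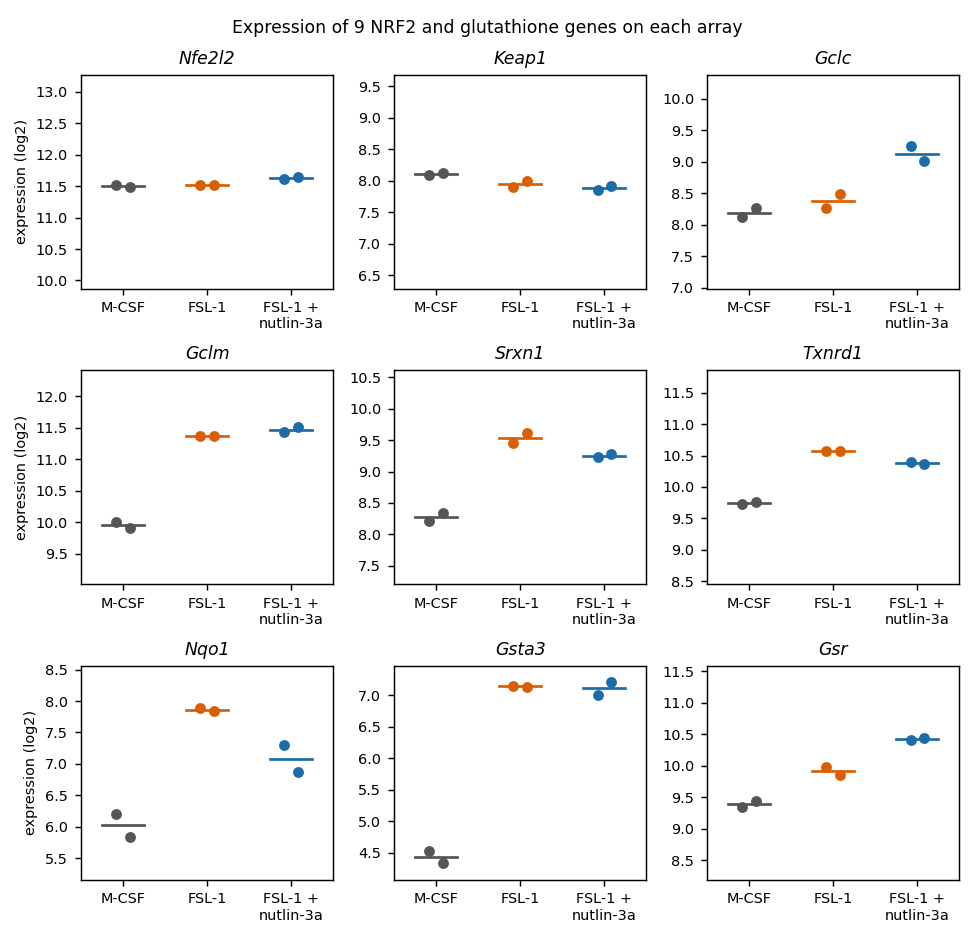
Expression (log2) of the 9 measured genes on each array, with 1 panel per gene, 2 points per group and a line at the group mean; every vertical axis spans the same number of log2 units. Gsta3 rises from 4.33 and 4.52 in M-CSF to 7.14 on both FSL-1 arrays, the 2 FSL-1 + nutlin-3a points of Gclc, at 9.01 and 9.25, lie above its other 4, and Nfe2l2 stays between 11.49 and 11.65.

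Nfe2l2, the gene of NRF2, read 11.51 and 11.49 (log2) on the M-CSF arrays, 11.52 on both FSL-1 arrays, and 11.61 and 11.65 with FSL-1 + nutlin-3a. The groups did not overlap, but the highest M-CSF array and the lowest FSL-1 array were nearly level. The log2 change with FSL-1 was 0.02 (95% interval -0.24 to 0.27, adjusted p = 0.959), and its sign turned when arrays were centred or quantile-normalized again. With nutlin-3a the change was 0.11 (95% interval -0.14 to 0.37, adjusted p = 0.625). Keap1, whose product holds NRF2 for degradation, read 8.09 and 8.12 in M-CSF, 7.894 and 7.996 in FSL-1, and 7.85 and 7.92 in FSL-1 + nutlin-3a. Both M-CSF arrays were the highest, and the 2 other groups overlapped. The change with FSL-1 was -0.16 (95% interval -0.42 to 0.10, adjusted p = 0.503). The second, dimmer probe set of Keap1 pointed the other way (0.13, adjusted p = 0.682). Neither regulator passed in any of the 3 comparisons.

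Glutathione is made in successive steps, and the first is carried out by glutamate-cysteine ligase, which joins a catalytic subunit, encoded by Gclc, to a modifier subunit, encoded by Gclm, that eases its feedback inhibition. The RNA of these subunits followed different courses. Gclm read 9.997 and 9.914 in M-CSF, 11.37 on both FSL-1 arrays, and 11.43 and 11.52 in FSL-1 + nutlin-3a. The step from M-CSF to FSL-1 was far wider than the spread of either group, with a log2 change of 1.41 (SE 0.113, adjusted p = 0.000393). Nutlin-3a added 0.10 to it (95% interval -0.16 to 0.36, adjusted p = 0.681). Gclc read 8.12 and 8.26 in M-CSF, 8.26 and 8.49 in FSL-1, and 9.25 and 9.01 in FSL-1 + nutlin-3a. The M-CSF and FSL-1 arrays overlapped, and both arrays with nutlin-3a were higher than the other 4. The change with FSL-1 was 0.19 (95% interval -0.14 to 0.52, adjusted p = 0.535), and that with nutlin-3a 0.75 (SE 0.142, adjusted p = 0.0223). The latter call was lost without FSL-1 replicate 1 (0.64, adjusted p = 0.158), FSL-1 replicate 2 (0.87, adjusted p = 0.073) or FSL-1 + nutlin-3a replicate 1 (0.63, adjusted p = 0.115). Against M-CSF, the FSL-1 + nutlin-3a arrays were 0.94 higher in Gclc (adjusted p = 0.00536), and this call held without any 1 of the 6 arrays.

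The ratio of Gclm to Gclc was compared after these values had been seen. Relative to its M-CSF mean on the log2 scale, the ratio was 0.11 and -0.11 in M-CSF, 1.34 and 1.11 in FSL-1, and 0.41 and 0.74 in FSL-1 + nutlin-3a. It was thus highest with FSL-1 alone and lower, but above M-CSF, when nutlin-3a was present. Each step separated the groups without overlap, but with 2 arrays against 2 an exact permutation test (two-sided) cannot go below p = 0.333, which is what it gave for FSL-1 against either other group.

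Gsr encodes glutathione reductase, which uses NADPH to turn oxidised glutathione back to its reduced form. It read 9.34 and 9.43 in M-CSF, 9.99 and 9.85 in FSL-1, and 10.41 and 10.44 in FSL-1 + nutlin-3a. The 3 groups stood in that order without overlap, with changes of 0.53 (SE 0.116, adjusted p = 0.0354) at the first step and 0.51 (SE 0.116, adjusted p = 0.0441) at the second. Each step was close to the threshold, and both calls were lost when each pair of groups was fitted by itself (adjusted p = 0.0557 and 0.0618), with the replicate number as a block (adjusted p = 0.0677 and 0.0813) and on omission of any 1 of the 6 arrays. Without M-CSF replicate 1 or 2 the first step was 0.48 or 0.57, and without FSL-1 replicate 1 or 2 it was 0.46 or 0.60. Without FSL-1 replicate 1 or 2 the second step was 0.58 or 0.44, and omission of replicate 1 or 2 of FSL-1 + nutlin-3a gave 0.52 or 0.49. The fits without an array of the third group left both steps as they were, with the adjusted p of each pair fitted by itself. The whole distance from M-CSF to FSL-1 + nutlin-3a, 1.04 (adjusted p = 0.00133), passed without any 1 of the 6 arrays.

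Srxn1 encodes sulfiredoxin, which rescues peroxiredoxins whose active cysteine has been overoxidised. It read 8.22 and 8.34 in M-CSF, 9.45 and 9.60 in FSL-1, and 9.22 and 9.28 in FSL-1 + nutlin-3a. Both FSL-1 arrays were above both nutlin-3a arrays, and all 4 were far above M-CSF. The rise with FSL-1 was 1.24 (SE 0.120, adjusted p = 0.00103). The change with nutlin-3a was -0.28 (95% interval -0.55 to 0.002, adjusted p = 0.240). Txnrd1 encodes the cytosolic thioredoxin reductase, a selenoenzyme that keeps thioredoxin reduced. It read 9.74 and 9.77 in M-CSF, 10.58 on both FSL-1 arrays, and 10.39 and 10.37 in FSL-1 + nutlin-3a. The order of the groups was the same as for Srxn1. The rise with FSL-1 was 0.83 (SE 0.109, adjusted p = 0.0046) and the change with nutlin-3a -0.20 (95% interval -0.45 to 0.05, adjusted p = 0.350). Against M-CSF, the cells with nutlin-3a remained 0.63 higher in Txnrd1 (adjusted p = 0.0103). Omitting M-CSF replicate 1 (0.61, adjusted p = 0.0583) or FSL-1 + nutlin-3a replicate 1 ended that call (0.61, adjusted p = 0.0548).

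Gsta3 encodes a glutathione S-transferase of the alpha class, which couples glutathione to electrophiles. It read 4.52 and 4.33 in M-CSF, 7.14 on both FSL-1 arrays, and 7.01 and 7.21 in FSL-1 + nutlin-3a. The M-CSF arrays lay below the median level of all genes (5.51), and the other 4 above it. Its rise with FSL-1 was 2.71 (SE 0.129, adjusted p = 2.99e-05). The files give no background level, and the M-CSF arrays lay near the mean of 7 lymphocyte markers (4.33 to 4.51 there), so it is not known whether Gsta3 was above background in M-CSF, and its change and fold may be understated. The arrays with and without nutlin-3a overlapped (change -0.03, 95% interval -0.33 to 0.27, adjusted p = 0.928), and the sign of that change turned without FSL-1 + nutlin-3a replicate 1 (0.07) and when quantile normalization was repeated (0.03). Array probes of the alpha class can share sequence, and the probe sets of Gsta1 and Gsta2 name several genes each and are not analysed here.

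Nqo1 encodes a quinone reductase that reduces quinones without forming a radical and is the classical marker of NRF2 activity. It read 6.21 and 5.84 in M-CSF, 7.88 and 7.84 in FSL-1, and 7.30 and 6.87 in FSL-1 + nutlin-3a. The groups did not overlap, and the nutlin-3a arrays lay between the others. The rise with FSL-1 was 1.84 (SE 0.179, adjusted p = 0.00107), and it passed without any 1 of the 6 arrays. With nutlin-3a it fell by 0.77 (SE 0.179, adjusted p = 0.0448). That call was lost when quantile normalization was repeated (-0.74, adjusted p = 0.0572) and without FSL-1 replicate 1 (-0.75, adjusted p = 0.200), FSL-1 replicate 2 (-0.80, adjusted p = 0.178) or FSL-1 + nutlin-3a replicate 2 (-0.56, adjusted p = 0.172). Compared with M-CSF, Nqo1 was still 1.06 higher in the cells with nutlin-3a (adjusted p = 0.00893). That call did not survive the omission of M-CSF replicate 2 (0.88, adjusted p = 0.054) or FSL-1 + nutlin-3a replicate 1 (0.85, adjusted p = 0.0514).

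**Figure D2:**
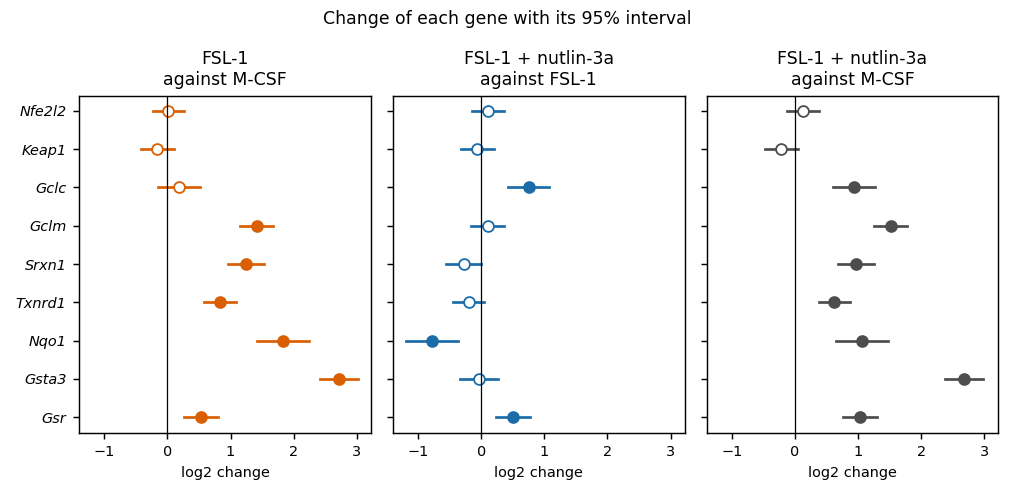
Log2 change of each measured gene (points) with its 95% interval (lines) in the 3 comparisons; filled points passed an adjusted p under 0.05 and open points did not. With FSL-1 the 6 filled points lie between 0.53 and 2.71; with nutlin-3a the 3 filled points are Gclc (0.75), Gsr (0.51) and Nqo1 (-0.77).

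According to its design text, the series added nutlin-3a to raise active p53. This comparison shares the FSL-1 arrays with the comparison above, so a gene that happened to read high on those arrays would tend to rise in the first comparison and fall in the second. Of the 9 genes, 2 rose and 1 fell, against 2.38% of all genes that rose and 4.12% that fell. The groups did not overlap for 7 of the 9, against 50.9% of all genes, and the median log2 change of the 9 was -0.03, against 0.024 over all genes. The direct comparison of FSL-1 + nutlin-3a with M-CSF gave 7 genes that rose, namely Gclc beside the 6 that rose with FSL-1 alone. None fell (0 in limma, and 0 at an unadjusted p under 0.05). Of all genes, 4.58% rose and 4.94% fell in it. The groups did not overlap for 9 of 9 genes, against 51.5% of all genes, and the median change was 0.97, against 0.021 over all genes. In this direct comparison the log2 changes were 2.68 for Gsta3, 1.52 for Gclm, 1.06 for Nqo1, 1.04 for Gsr, 0.97 for Srxn1, 0.94 for Gclc and 0.63 for Txnrd1.

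The other genes of NRF2 signalling and glutathione metabolism were taken from a list of 84, of which 73 had a probe set of their own. G6pdx, which encodes the first enzyme of the NADPH-producing pentose phosphate pathway, is among the 11 that are not analysed here. With FSL-1, 17 of the 73 rose and 2 fell, against 3.91% and 2.95% of all genes, with a median log2 change of 0.23, against -0.0081 over all genes. Of these, 7 of the 17 and 0 of the 2 passed in each of the 6 fits that left out 1 array. The 7 were Slc7a11, Chac1, Gpx1, Glrx, Gstm2, Gstp1 and Sod2.

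Cysteine is the limiting building block of glutathione. Slc7a11, the transporter subunit that imports cystine, read 4.97 and 4.81 in M-CSF, 9.69 and 9.50 in FSL-1, and 10.50 and 9.97 in FSL-1 + nutlin-3a. Both M-CSF arrays lay below the median level of all genes and the other 4 far above it. The rise with FSL-1 was 4.70 (SE 0.182, adjusted p = 1.14e-05), which may be understated, since it is not known whether Slc7a11 was above background in M-CSF. The change with nutlin-3a was 0.64 (adjusted p = 0.0853). Its second probe set, which is dimmer, had 1.32 with FSL-1 (adjusted p = 0.0577). Of the 10 measured genes for cystine import and glutathione synthesis and turnover, 5 rose with FSL-1 and 0 fell (limma, 1 lower at an unadjusted p under 0.05). Of all genes, 3.91% rose and 2.95% fell, and these shares also stand beside the FSL-1 counts of the other roles below. Gss, which encodes the enzyme of the second step of glutathione synthesis, rose by 0.80 (SE 0.113, adjusted p = 0.00636), a call lost without FSL-1 replicate 2 (highest adjusted p = 0.0633), and with nutlin-3a it had -0.04 (adjusted p = 0.890). Chac1, which degrades glutathione and is also a target of the integrated stress response, rose by 1.41 with FSL-1 and fell by 1.59 with nutlin-3a (adjusted p = 0.00342). Chac1 read 5.17 and 5.74 in M-CSF and 5.37 and 5.17 in FSL-1 + nutlin-3a, around the median level of all genes (5.51). Whether it was above background in these groups is not known. Slc1a4, a transporter of small neutral amino acids, rose by 0.82, a call lost without FSL-1 replicate 1 (adjusted p = 0.054), and fell by 1.20 with nutlin-3a (adjusted p = 0.00119).

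Among 9 glutathione peroxidases and glutaredoxins, 2 rose with FSL-1 and 0 fell (limma, 0 at an unadjusted p under 0.05). Glrx, a glutaredoxin that removes glutathione from proteins, rose by 1.62 (SE 0.134, adjusted p = 0.000464), and Gpx1, the cytosolic selenium-dependent peroxidase, by 1.21 (SE 0.118, adjusted p = 0.00107). Of 13 glutathione S-transferases, Gstp1 (1.41) and Gstm2 (1.17) rose and Mgst3, a membrane-bound member, fell by 0.55 (adjusted p = 0.0359), which failed whichever of the 6 arrays was omitted (-0.63 to -0.46). Of 9 thioredoxin and peroxiredoxin genes, Sesn2, a sestrin that is also a p53 target, rose by 0.69 and Txnip, an inhibitor of thioredoxin, fell by 0.91 (adjusted p = 0.026 and 0.0148). The call of Sesn2 failed when any of the 4 compared arrays was omitted (changes from 0.57 to 0.82), and that of Txnip when M-CSF replicate 1 or either FSL-1 array was (-1.07 to -0.74). Txn1, the cytosolic thioredoxin, had 0.23 (adjusted p = 0.346). Of 4 measured genes of NADPH supply, Me1, the cytosolic malic enzyme, rose by 0.70 (adjusted p = 0.0181), which failed when any of the 4 compared arrays was omitted (0.60 to 0.80).

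Haem oxygenase 1, encoded by Hmox1, breaks haem down and answers to NRF2 and to its competitor BACH1. Hmox1 read 11.53 and 11.61 in M-CSF, 12.05 and 12.08 in FSL-1, and 12.33 and 12.38 in FSL-1 + nutlin-3a. The 3 groups stood in that order without overlap. The rise with FSL-1 was 0.50 (SE 0.111, adjusted p = 0.037), which failed whichever of the 6 arrays was omitted (0.46 to 0.54) and with the replicate number as a block (adjusted p = 0.0686). The change with nutlin-3a was 0.28 (adjusted p = 0.190), and the direct difference between FSL-1 + nutlin-3a and M-CSF was 0.78 (adjusted p = 0.00402), which passed whichever of the 6 arrays was omitted. Of the 13 measured genes of haem, iron and quinone handling, 3 rose with FSL-1 and 0 fell (limma, 1 at an unadjusted p under 0.05). Beside Hmox1 they were the carbonyl reductase Cbr3 (0.60) and the aldehyde oxidase Aox1 (0.55), both lost without any 1 of the 6 arrays (0.44 to 0.75 and 0.44 to 0.66). Aox1 read 5.13 and 5.27 in M-CSF, below the median level of all genes (5.51), and whether it was above background there is not known. Of 4 genes of superoxide and peroxide removal, Sod2, the mitochondrial superoxide dismutase and also an NF-kB target, rose by 1.33 (SE 0.121, adjusted p = 0.000738).

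Among 11 other regulators, 2 rose with FSL-1 and 0 fell (limma, 0 at an unadjusted p under 0.05). Sqstm1, the autophagy receptor p62 that can pull KEAP1 away from NRF2 and is itself a target of NRF2, read 11.52 and 11.57 in M-CSF, 12.28 and 12.29 in FSL-1, and 11.45 and 11.47 in FSL-1 + nutlin-3a. Both FSL-1 arrays were higher than the other 4. It rose by 0.74 with FSL-1 (adjusted p = 0.00776) and fell by 0.82 with nutlin-3a (adjusted p = 0.00532). The rise failed on omission of M-CSF replicate 1 or either FSL-1 array (0.71 to 0.76), and the fall on omission of either FSL-1 array (highest adjusted p = 0.0531). Nfe2l1, the gene of the related factor NRF1, rose by 0.75 with FSL-1 (adjusted p = 0.0105), which failed on omission of M-CSF replicate 1 or either FSL-1 array (0.67 to 0.83). Bach1, the gene of the repressor that competes with NRF2, had 0.16 with FSL-1 (adjusted p = 0.575) and -0.48 with nutlin-3a (adjusted p = 0.0836).

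With nutlin-3a, 0 of the 73 listed genes rose and 10 fell (limma, 9 and 19 at an unadjusted p under 0.05), against 2.38% and 4.12% of all genes, with a median log2 change of -0.12, against 0.024 over all genes. The count of 0 depended on the setting: variance moderation with trend and robust called 9 higher, and the filter at the median level 7. Of the 10, Chac1, Slc1a4 and Akr1b8 passed in each of the 6 fits without 1 array. Akr1b8, an aldo-keto reductase, fell by 1.05 (SE 0.132, adjusted p = 0.00413). Gstp1 fell by 0.94 (adjusted p = 0.0116), a call lost without FSL-1 replicate 1 or 2 or FSL-1 + nutlin-3a replicate 1 (-1.07 to -0.81). Sod2 fell by 0.64 (adjusted p = 0.0227), a call lost without FSL-1 replicate 1 or 2 or FSL-1 + nutlin-3a replicate 1 or 2 (-0.73 to -0.54). The transferases Gstk1 (-0.65) and Gsto1 (-0.58), the peroxiredoxin Prdx4 (-0.57) and Ugdh, which makes the sugar used in glucuronidation (-0.48), fell with adjusted p from 0.0407 to 0.0465. These calls were lost without any 1 of the 6 arrays (the 4 genes together ran from -0.80 to -0.43). In the direct comparison of FSL-1 + nutlin-3a with M-CSF, Gstk1 and Prdx4 were lower whichever array was omitted (-1.13 to -0.89 and -0.96 to -0.69). Against M-CSF, 12 of the 73 genes rose and 6 fell in FSL-1 + nutlin-3a, against 4.58% and 4.94% of all genes, with a median log2 change of 0.08, against 0.021 over all genes. Of these, 7 of the 12 and 3 of the 6 passed in each of the 6 fits without 1 array.

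**Figure D3:**
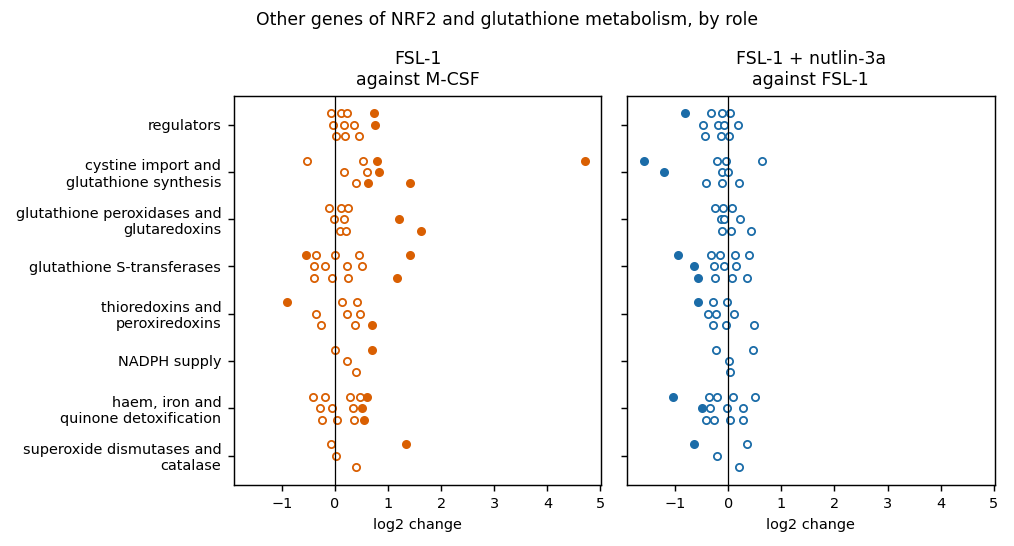
Log2 change of the 73 other genes by role (rows) with FSL-1 (left) and with nutlin-3a added (right); filled points passed an adjusted p under 0.05. On the left Slc7a11 stands apart at 4.70 and 17 filled points lie to the right of 0 and 2 to the left; on the right all 10 filled points lie to the left, down to Chac1 at -1.59.

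The genes with the most similar course were sought among all genes above the median level, as those with the smallest mean absolute difference over the 6 arrays after each gene's own mean was subtracted. For Gsta3 these were Fabp7 (0.11, log2), Pla2g7 (0.12) and Clmp (0.17). For Nqo1 they were the arrestin relative Arrdc4 and the lectin receptors Clec4a1 and Clec4n, each at 0.09. For Gclm they were Rhou (0.06), Casp4 (0.06) and Plpp1 (0.08). In M-CSF, Rhou (4.92) and Plpp1 (5.01) lay below the median level of all genes (5.51). They passed that filter only through the groups with FSL-1, where they were higher. None of these 9 is on the member or pathway lists, and the measure describes likeness on 6 arrays of 3 groups. Among the 3 genes nearest to Srxn1 was Gpx1 (0.07), singled out after the values were seen because it is on the list of other pathway genes.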

How the data were processed

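Per the labels' protocols, RNA of sorted cells was biotin-labelled for array hybridisation. The authors deposited log2 values, 1 for each probe set; the submitters' processing notes name RMA and Affymetrix Expression Console 1.4. No background level is given. RMA equalises the arrays, so a change shared by most genes would be hidden. The annotation gives 23521 of the 34390 probe sets exactly 1 gene; 1814 carry several names and 9055 have no name. No genome build is named for the arrays. Groups and replicate numbers come from the labels, which do not say that replicates were separate cultures or animals, so p-values reflect only how far these arrays spread, and that spread may be technical. The number of arrays limits precision.

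All 22180 genes were fitted with limma 3.58.1 in R 4.3.3 on all 6 arrays (3 residual and 4.88 prior degrees of freedom), with Benjamini-Hochberg adjustment over all genes. The fit was also run on simulated data (20 runs, 200 changed genes), whose outcome is not given here, so no result rests on it. The members, lists and tests were chosen with earlier results of these data known. All members are named, and Mdm2 and Cdkn1a as a check of the nutlin-3a label; the other 3 label-check genes and the called marker genes were named after their values were seen. From the list of other pathway genes, 7 fixed genes are named whatever their result. Up to 3 called genes per role with the largest change are also named for FSL-1 against M-CSF and for nutlin-3a added. The called genes of the direct comparison with M-CSF are named only in part. Alternatives were other variance moderation, repeated quantile normalization, centring, mean of probe sets, filters on dim genes, compared groups alone, weights per array, a test against a fold of 1.5, a replicate block, and omission of each array in turn. After such an omission, the remaining array of that group is assumed to vary like the other groups. Figures were drawn with matplotlib 3.10.9.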

Additional observations from a re-analysis of the deposited data

How the results depend on the processing

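Over the 9 genes and 3 comparisons, 391 values under an alternative kept their direction and their side of the threshold, 37 kept the direction and lost the call, and 4 changed sign. The sign changes were those of Nfe2l2 with FSL-1 (-0.0225 when arrays were quantile-normalized again and -0.0161 when they were centred) and of Gsta3 with nutlin-3a (0.0327 when quantile-normalized again, and -0.134 to 0.0716 when 1 array was left out, the highest without FSL-1 + nutlin-3a replicate 1). Neither change had passed. Gclm, Srxn1, Nqo1 and Gsta3 rose with FSL-1 under every alternative run, and Txnrd1 under each except the fold minimum.

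The fold minimum of 1.5, which tests against that fold in place of 0, left 4 members higher with FSL-1, 2 in the direct comparison of nutlin-3a cultures with M-CSF, and 0 in either direction with nutlin-3a. It left 5 listed pathway genes higher and 0 lower with FSL-1, 1 lower with nutlin-3a, and 2 higher and 0 lower in the direct comparison. With nutlin-3a, the fit of the compared groups alone and that with the replicate block each called 1 member higher in place of 2, and repeated quantile normalization called 0 lower in place of 1. For the pathway genes, variance moderation with trend and robust called 5 lower with FSL-1, 9 higher with nutlin-3a and 19 higher for the direct comparison with M-CSF. The filter at the median called 4 lower with FSL-1 and 7 higher with nutlin-3a, and the filter at the 25th percentile 1 higher with nutlin-3a. The fit of the compared groups alone called 1 lower with FSL-1, 6 lower with nutlin-3a and 3 lower against M-CSF, and the replicate block 1 lower with FSL-1 and 6 lower with nutlin-3a. The cause of these shifts was not tested.

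When 1 array was left out, 5 members rose with FSL-1 in each fit, 0 or 1 rose and 0 or 1 fell with nutlin-3a, and 5 to 7 rose against M-CSF. With nutlin-3a the count of 2 higher was 0 without FSL-1 replicate 1, FSL-1 replicate 2 or FSL-1 + nutlin-3a replicate 1, and 1 without any other array. The pathway counts were 8 to 14 higher and 0 to 2 lower with FSL-1, 0 to 1 higher and 3 to 6 lower with nutlin-3a, and 8 to 9 higher and 3 to 4 lower against M-CSF. The 17 higher with FSL-1 became 9 or 11 on omission of the first or second M-CSF array and 8 on omission of either FSL-1 array, and the 10 lower with nutlin-3a became 3 without either FSL-1 array, 4 and 5 without FSL-1 + nutlin-3a replicates 1 and 2, and 6 without either M-CSF array. Deviations of same-numbered arrays from their group means correlated at -0.19, 0.02 and -0.02 between groups, and the labels do not say what a number shares, so the paired fit is given here only as an alternative.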
